A study of Mus musculus with 6 samples.

Results

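The transcripts of the cytosolic ribosomal protein genes were examined in bone marrow monocytes (BMDM) and brainstem microglia (BSM). Members were chosen by gene symbol alone: Rpl or Rps with a number and at most 1 of the suffixes in use, Rplp0 to Rplp2, and Rpsa, with pseudogenes and the Rps6k kinases left out. The rule found 81 genes among 35237 in the FPKM table (fragments counted per gene and scaled for transcript length and library size), 49 of the large and 32 of the small subunit. Of these, 77 also had a row under their own Ensembl identifier in the second table, made with ALEXA-Seq. The cytosolic ribosome is built from a small and a large subunit, and each subunit joins ribosomal RNA to a fixed set of proteins named RPS and RPL. Almost every one of these proteins is needed in a single copy per ribosome, with the acidic stalk proteins of the large subunit as the known exception, so cells tend to hold the transcripts at matched levels and raise them when they grow or divide. Ribosomal protein mRNAs commonly begin with a run of pyrimidines, the 5′ terminal oligopyrimidine tract, through which their translation follows nutrient and growth signals, and the genes have left many processed copies (reverse-transcribed pseudogenes) in mammalian genomes.

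Both groups came from 6-week-old C57BL/6 mice without any allele or agent, with 3 libraries a group that the study describes as independently generated biological replicates from pooled animals. After Percoll enrichment, BMDM were sorted as CD11b+ CD45high CD115+ Ly6G- cells from marrow, and BSM as CD11b+ CD45low CD115low Ly6G- cells from brain. The labels and the supplement give replicate 1 of each group as male and replicates 2 and 3 as female, whereas the main text speaks of male mice. RNA was amplified before sequencing, by a kit not stated to keep strand, and neither table gives read counts, so no counting error was computed. The labels held against defining markers. The 5 microglial markers (P2ry12, Tmem119, Olfml3, Siglech and Gpr34) summed to between 339 and 415 FPKM in BSM and to at most 1.05 in BMDM, and the 5 monocyte markers (Ccr2, Ly6c2, Fn1, F13a1 and Plac8) to between 439.6 and 496 FPKM in BMDM and at most 1.58 in BSM. The 8 genes listed as neutrophil markers, among them S100a8, S100a9, Elane and Mpo, summed to 61.0, 517 and 102 FPKM in BMDM replicates 1, 2 and 3. Which of the sorted Ly6G- cells carried these transcripts was not tested. In BSM they summed to at most 0.0940, and S100a8, Elane, Ltf, Camp and Prtn3 were listed at 0 in every BSM library. The 5 erythroid markers summed to 6.77, 38.8 and 6.87 FPKM in the BMDM libraries. BSM replicate 1 listed 11237 genes above 0, against 14599 to 16977 in the other 5 libraries. In the supplementary assessment of RNA quality this library also had the lowest RNA integrity and concentration of all, and the part of RNA quality in the results was not tested. Summed over all genes, FPKM came to between 163199 and 194184 in BMDM and between 68288 and 75021 in BSM. The median gene tested was itself higher in BMDM, by 0.81 on the log2 scale, and every difference below is to be read against that shift.

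Sequence around the annotated start is shown for 6 members because the results turn on them and RefSeq gives each exactly 1 start. Each window holds 30 bases of the sense strand in GRCm38.p6, from 20 before to 10 after the start, with its longest run of C and T in capitals. Rpl4, Rps9 and Rps26 were higher in BMDM. Rpl10, Rpl27a and Rplp2 are members whose mean FPKM was not.
Rpl4, chr9:64173367-64173396, plus strand: agTCTTTCCTTTTCCTgtgggagcagccgg
Rps9, chr7:3704021-3704050, plus strand: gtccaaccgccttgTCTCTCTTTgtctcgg
Rps26, chr10:128626497-128626526, minus strand: agcgggtcgggcaagccgccggaTCCTCTT
Rpl10, chrX:74270796-74270825, plus strand: CTatggttgttacagtggaagataggccgc
Rpl27a, chr7:109519175-109519204, plus strand: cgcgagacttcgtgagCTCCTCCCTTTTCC
Rplp2, chr7:141447631-141447660, plus strand: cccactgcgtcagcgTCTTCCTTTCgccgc
Within the window the run was 14, 9 and 7 bases long in the first 3 genes and 2, 14 and 10 bases long in the others. The runs of Rps26, Rpl10 and Rpl27a touch an edge of the window, so they may be longer. With 6 chosen genes a relation between the run and the difference cannot be judged, and it was not tested. A promoter was at hand for 60 members, with 72 starts in all. A run of at least 8 pyrimidines lay in the window of 28 of the 72 starts, or 38.9%, against 12.6% of the 32851 starts in the whole table. The motif CCGGAAG, which holds the core bound by ETS family factors, was found on either strand within the 300 bases from 250 before to 50 after the start at 36.1% of the members' starts and 8.86% of all. A match is a description of these letters and not a binding site, and annotated starts can lie some bases from the start used in these cells.

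Levels were low in the FPKM table. The median member stood at 2.17, 4.30 and 2.55 FPKM in BMDM replicates 1, 2 and 3, and at 0.291, 0.810 and 0.825 FPKM in the BSM replicates. These medians lay below those of all genes tested, which were 4.94 to 6.20 FPKM in BMDM and 2.72 to 3.33 FPKM in BSM. The comparison is unlike, since all genes tested had passed a minimum of 3 FPKM and the 81 members had not been filtered. By ALEXA-Seq the median of the unfiltered members was 90.0, 154 and 110 in BMDM replicates 1, 2 and 3. That of all genes tested was lower, at 58.9, 76.7 and 67.0. In the BSM replicates the members had 11.4, 28.8 and 24.6, below 40.9, 43.8 and 42.9 for all genes tested. Only 1 member, Rpl4, reached 100 FPKM in any library. A total of 49 members reached the minimum of 3 FPKM in at least 1 library that was set for testing, 31 of them in BMDM libraries only, 1 in BSM libraries only and 17 in both. The other 32 stayed under it in every library, and 10 were listed at 0 in at least 1 library. Since most of the 49 passed through the group in which they were high, the counts that follow describe the genes that entered the test and not the family as a whole. The ordering of genes was similar in the cell types: over the 81 members the mean FPKM in BMDM and in BSM had a Spearman rho of 0.84, given as a description, since the libraries share gene lengths and mapping.

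Ribosomal protein transcripts were higher in BMDM than in BSM. By FPKM, 38 of the 49 members tested passed an adjusted p of 0.05 (limma on log2(FPKM + 1), adjusted by Benjamini-Hochberg over all genes tested), all of them higher in BMDM. The background was high, as 54.5% of the 6364 genes tested passed and 45.3% passed as higher in BMDM. The members' median log2 fold change was 1.65, against 0.81 over all genes tested. None was called higher in BSM, where 9.22% of all genes were, and 1 of 49 was lower in BMDM at an unadjusted p under 0.05. Among all 81 members, with no filter, the 3 BMDM libraries lay above the 3 BSM libraries for 52 genes, the BSM libraries lay above for 2 (Rpl10 and Rps29), and 27 overlapped. Among the 49 members tested, which had passed the filter, BMDM lay above for 39 and BSM above for 1. Over all genes tested, which had passed the same filter, groups did not overlap for 66.8%, with BMDM above for 55.2% and BSM above for 11.6%.

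The ALEXA-Seq table, in which the same libraries were quantified a second way, gave the same direction with larger differences. There 55 of 63 members tested were called by limma, all higher in BMDM, against 47.9% of all genes tested and 37.1% called higher in BMDM. Genes entered this test by their highest value in any library, so a member could enter through BMDM alone. These counts too describe the genes admitted and not the whole family. None of the 63 was called higher in BSM, against 10.9% of all genes, and none was lower in BMDM at an unadjusted p under 0.05. The median log2 fold change was 2.55 for the members and 0.84 for all genes. With no filter, all 3 BMDM libraries lay above all 3 BSM libraries for 66 of 77 members, and BSM lay above for 1, Rpl12. Among the 63 members tested, BMDM lay above for 60 and BSM above for 0, against 51.5% and 14.6% over all genes tested. In both tables a larger share of the small subunit was called: 19 of 21 members tested were called by FPKM with a median of 1.85, and 25 of 26 by ALEXA-Seq with a median of 2.70. For the large subunit these were 19 of 28 with a median of 1.34, and 30 of 37 with a median of 2.47. By ALEXA-Seq the order of the shares turned with the replicate number as a block (22 of 26 small and 33 of 37 large subunit members called) and without BSM replicate 2 (22 of 26 and 32 of 37). The difference between the subunits was not tested. In bulk RNA, a difference in the share of cells of one kind and in the RNA per cell cannot be told apart.

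**Figure D1:**
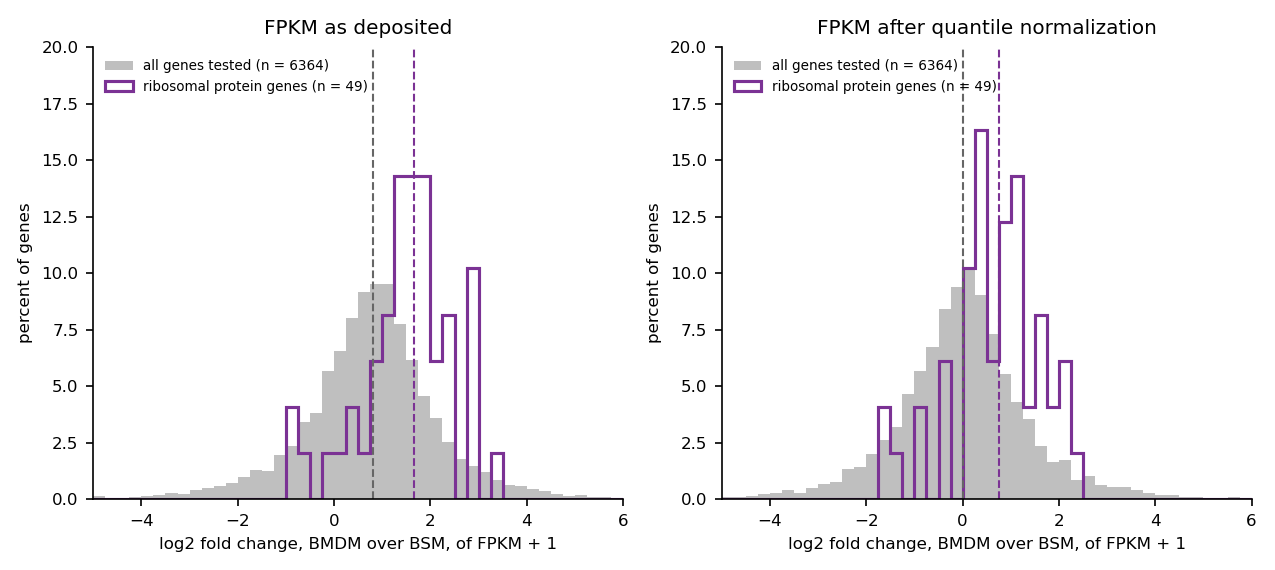
Histograms of the log2 fold change (BMDM over BSM, of FPKM + 1) for all 6364 genes tested, in grey, and for the 49 ribosomal protein genes tested, as a purple line, each as percent of genes; dashed lines mark the medians. On the left, as deposited, the medians are 0.81 and 1.65. On the right, after quantile normalization, they are 0.02 and 0.75, and the ribosomal protein genes remain shifted to the right.

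How much of this was specific to the ribosomal protein genes depended on the scaling between libraries. With upper quartile scaling, quantile normalization, and an equal sum in each library, the median log2 fold change of all genes fell to 0.14, 0.02 and -0.23, while that of the members was 1.12, 0.75 and 0.80. By FPKM, 30, 23 and 20 of 49 members were then called higher in BMDM and 3 higher in BSM each time. Of all genes tested, 21.7%, 21.7% and 15.2% were called higher in BMDM under these scalings, and 16.5%, 19.3% and 24.9% higher in BSM. The members called higher in BSM were Rpl10, Rplp2 and Rps27a under each scaling. A total of 17 of the 38 genes called higher in BMDM stayed so under all 3 scalings by FPKM, and 36 of 55 by ALEXA-Seq, where 18.9%, 22.6% and 13.2% of all genes were called higher in BMDM. Those that did in both tables numbered 14 of 34, among them Rpl4, Rpl29, Rpl32, Rpl39, Rplp0, Rps3, Rps3a, Rps4x, Rps15, Rps19, Rps24, Rps25 and Rps26. The share of all genes that stayed called under all 3 scalings was not computed, so these counts have no like background. A share of the total does not depend on the scaling. Of all FPKM in a library, the 81 members took 0.294%, 0.380% and 0.352% in BMDM but 0.246%, 0.254% and 0.241% in BSM. The ratio of the group means was 1.38 ± 0.181 (SD, n = 3 per group). This FPKM ratio leans on Rpl4, and the share without that gene was not computed. Rpl4 alone held 125, 195 and 160 of the members' summed 480, 738 and 611 FPKM in BMDM. In BSM it held 18.1, 21.3 and 23.6 of 170, 191 and 165. Their share of the summed ALEXA-Seq value was 0.908% ± 0.10 in BMDM and 0.430% ± 0.00204 in BSM, a ratio of 2.11. Mitochondrially encoded genes took 32.9% ± 4.14 of the summed FPKM in BMDM and 13.5% ± 1.3 in BSM, and with them left out the ratio of the members' shares was 1.78 by FPKM and 2.69 by ALEXA-Seq.

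Rpl4, a core protein of the large subunit at chr9:64021181-64026323 (mm9), had the highest level of the family. Its FPKM was 125, 195 and 159.7 in BMDM replicates 1, 2 and 3, and 18.1, 21.3 and 23.6 in the BSM replicates. The groups were far apart, with a log2 fold change of 2.86 ± 0.25 (SE) and an adjusted p of 7.44e-05 by limma. The ALEXA-Seq values, 3071, 4697 and 3880.2 against 584, 580.2 and 613, gave 2.69. Rpl4 has 1 pseudogene copy, not listed in the FPKM table, so its row can be read with less doubt than most.

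The other members with high FPKM and a difference between the groups were spread over both subunits. Rps3, which lies at the mRNA entry of the small subunit and also acts in DNA repair, had 19.5, 35.6 and 25.9 FPKM in BMDM and 3.52, 5.58 and 4.79 in BSM. Rps9, also of the small subunit, had 18.8, 24.8 and 22.2 against 10.6, 10.4 and 8.47. Rpl22, a large subunit protein with a known role in lymphocyte development, had 13.9, 22.9 and 18.5 against 2.55, 4.68 and 4.91. None of these groups overlapped, and the log2 fold changes were 2.29 ± 0.29 for Rps3, 1.08 ± 0.23 for Rps9 and 1.96 ± 0.30 for Rpl22. Rps9 differed least of these, and its direction was lost with an equal sum in each library (-0.15 by FPKM and -0.08 by ALEXA-Seq). Rpl13a, known for its part in interferon-induced translational silencing in myeloid cells, had 11.4, 15.9 and 13.6 FPKM in BMDM and 1.80, 3.92 and 3.22 in BSM, with a log2 fold change of 1.91 ± 0.28.

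Rpl32, Rpl4 and Rps26 were among the 5 members with the largest differences called in both tables without overlap. Rpl32, of the large subunit, had 8.81, 25.9 and 13.2 FPKM in BMDM against 0.346, 1.63 and 1.33 in BSM. That is a log2 fold change of 2.94 ± 0.43 (adjusted p = 0.000968) by FPKM and 3.51 by ALEXA-Seq. By FPKM, BSM replicate 1 was the lowest library for Rpl32, Rpl4 and Rps26, and without it they were called in both tables. No member met the same rule as higher in BSM.

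**Figure D2:**
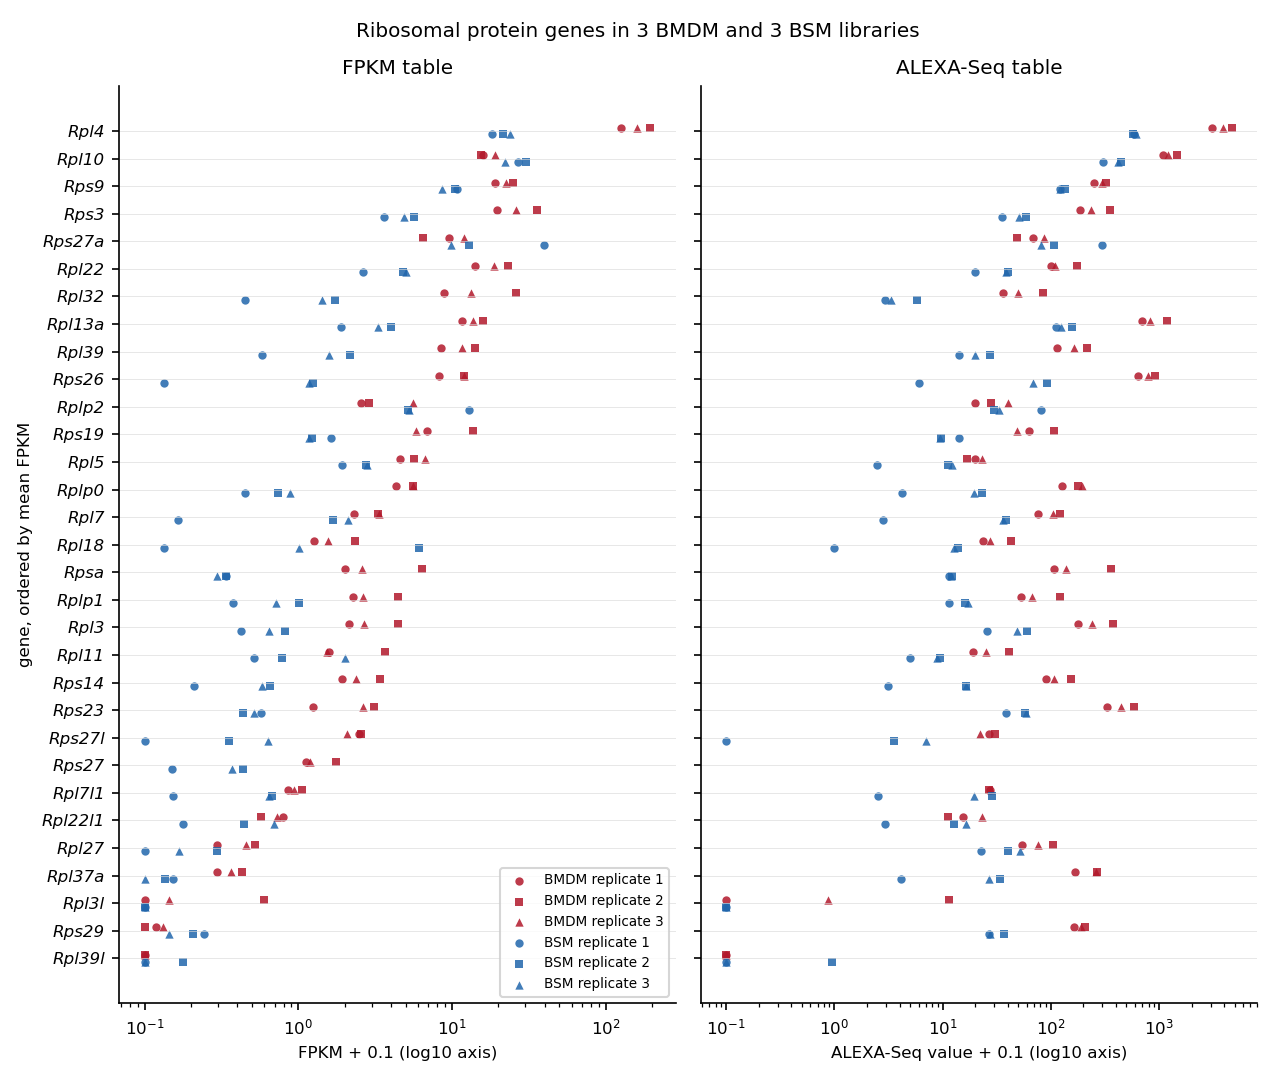
FPKM (left) and ALEXA-Seq value (right), each plus 0.1 on a log10 axis, of 31 named ribosomal protein genes ordered by mean FPKM, with BMDM libraries in red, BSM libraries in blue and a marker shape for each replicate; Rps27 has no ALEXA-Seq row of its own. Red points lie to the right of blue for most genes, with Rpl10, Rpl18, Rpl39l, Rplp2, Rps27a and Rps29 as exceptions by their means on the left, and BSM replicate 1 (blue circles) is often the lowest library.

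Rps19, Rps26, Rpl5 and Rpl11 are known for inherited anaemia (Diamond-Blackfan anaemia) and for the control of p53. Rps19, the gene most often affected, had 6.78, 13.6 and 5.74 FPKM in BMDM and 1.53, 1.13 and 1.08 in BSM, with no overlap and a log2 fold change of 2.03 ± 0.33 (adjusted p = 0.00165). Rps26 had 8.17, 11.8 and 11.8 against 0.0338, 1.14 and 1.08 FPKM, with a log2 fold change of 2.78 ± 0.34 (adjusted p = 0.000460). Rpl5 and Rpl11, which with 5S rRNA bind the p53 regulator MDM2, differed by less. Rpl5 had 4.47, 5.55 and 6.57 FPKM in BMDM against 1.83, 2.67 and 2.69 in BSM (log2 fold change of 0.94 ± 0.25, adjusted p = 0.0142), and without BMDM replicate 3 the call was lost (adjusted p = 0.0771). Rpl11 had 1.48, 3.58 and 1.43 against 0.412, 0.687 and 1.91 FPKM, so the groups overlapped through BSM replicate 3 and the log2 fold change of 0.66 ± 0.40 was not called (adjusted p = 0.188). By ALEXA-Seq, Rpl11 was called higher in BMDM (1.73, adjusted p = 0.0246), a call that was lost without BMDM replicate 2, BMDM replicate 3 or BSM replicate 3.

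The stalk of the large subunit recruits elongation factors and is made of Rplp0, which anchors it, and of the acidic proteins Rplp1 and Rplp2. Rplp0 had 4.22, 5.44 and 5.50 FPKM in BMDM and 0.349, 0.635 and 0.776 in BSM, and Rplp1 had 2.17, 4.32 and 2.55 against 0.273, 0.910 and 0.616. Both were called higher in BMDM, with log2 fold changes of 1.93 ± 0.25 and 1.31 ± 0.32. Rplp2 went the other way in means, with 2.47, 2.77 and 5.44 FPKM in BMDM and 12.8, 5.07 and 5.11 in BSM. Its groups overlapped through BMDM replicate 3, its log2 fold change of -0.87 ± 0.40 was not called (adjusted p = 0.10), and it was -0.47 at the nearest to 0 when 1 library was left out. Relative to the other genes it was lower in BMDM: the value was -1.64 (adjusted p = 0.0140) after quantile normalization. Rpsa, the small subunit protein also known as the laminin receptor, had 1.90, 6.25 and 2.48 FPKM in BMDM and 0.238, 0.237 and 0.197 in BSM, a log2 fold change of 1.77 ± 0.39 (adjusted p = 0.00634).

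Among the members tested, Rpl10, Rps27a, Rpl27a and Rpl18 were the others whose mean FPKM was not higher in BMDM. Of all 81 members the mean was higher in BMDM for 69. Rpl10, which joins the large subunit late in its assembly and lies at chrX:71516151-71518474 (mm9), had 15.8, 15.4 and 19.0 FPKM in BMDM and 26.9, 30.2 and 22.0 in BSM. The groups did not overlap and BSM was higher, with a log2 fold change of -0.62 ± 0.23 that just missed the threshold (adjusted p = 0.0510) and passed it without BSM replicate 1 (-0.60, adjusted p = 0.0381). The ALEXA-Seq table gave the opposite order, with 1096, 1461 and 1199 in BMDM and 301, 446 and 413 in BSM, called at 1.7 ± 0.22 (adjusted p = 0.00108). This was the largest disagreement between the tables in the family, at -2.32 (FPKM minus ALEXA-Seq) on the log2 scale. The tables contradict each other, and no direction is given for Rpl10 here.

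Rps27a, made as a fusion of ubiquitin and a small subunit protein, had 9.50, 6.34 and 11.9 FPKM in BMDM and 39.4, 12.8 and 9.73 in BSM. Most of its difference lay in BSM replicate 1: the log2 fold change of -0.86 ± 0.50 (adjusted p = 0.172) was -0.29 without it. Rpl27a showed the same library apart, with 3.53, 6.26 and 5.39 FPKM in BMDM and 15.8, 3.73 and 2.87 in BSM. Its log2 fold change was -0.18 ± 0.54 and was not called (adjusted p = 0.792), and without that library it was 0.47 (adjusted p = 0.153), so no direction is given for Rpl27a, which was named after its values were seen. In Rps27a, Rpl27a and Rplp2, BSM replicate 1 was the highest of the 6 libraries in both tables, whereas over the family it was the lowest BSM library for 56 of 81 members. Its median over all genes tested was also the lowest, at 2.72 FPKM against 3.33 and 3.22 in BSM replicates 2 and 3. Rpl18 had 1.17, 2.22 and 1.45 FPKM in BMDM and 0.0336, 6.00 and 0.903 in BSM, so its value rested on 1 high BSM library and its direction could not be given (0.11 ± 0.64, adjusted p = 0.899).

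Some ribosomal proteins have a paralog with a narrower range of tissues. Rpl3l, the form of Rpl3 found in muscle, was listed at 0 in all BSM libraries and in BMDM replicate 1, with 0.501 and 0.0440 FPKM in BMDM replicates 2 and 3. Rpl3 had 2.03, 4.33 and 2.57 FPKM in BMDM against 0.325, 0.716 and 0.547 in BSM and was called higher in BMDM (1.35 ± 0.31, adjusted p = 0.00846). Rpl39l, the form known from testis, was listed at 0 in 5 of 6 libraries, while Rpl39 had 8.33, 14.0 and 11.5 FPKM in BMDM and 0.481, 2.06 and 1.48 in BSM, with a fold change of 2.43 ± 0.34 on the log2 scale. The rows of Rpl7l1 and Rpl22l1 stayed under 1 FPKM in every library. The FPKM of Rpl7l1 was 0.753 to 0.956 in BMDM and 0.0533 to 0.568 in BSM, and that of Rpl22l1 was 0.467 to 0.693 and 0.0764 to 0.593. Rpl7 had 2.21, 3.22 and 3.25 against 0.0644, 1.58 and 2.02 FPKM and was not called (0.93 ± 0.42, adjusted p = 0.0929). Rps27l, a p53 target, had 2.38, 2.44 and 1.98 FPKM in BMDM and 0, 0.253 and 0.536 in BSM. Rps27 cannot be set beside it, because the row of that name spans 255 bases on chromosome 9 while the gene lies on chromosome 3 in GENCODE M21. The rows named Rpl41 and Rps13, both among the 38 called, also lie away from their genes.

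The 2 tables were compared gene by gene because near-identical copies can draw or split reads. Of 46 members tested in both, 34 were called higher in BMDM in both. Opposite calls could not arise, since neither table called a member higher in BSM. Of all genes tested, 45.3% were called higher in BMDM by FPKM and 37.1% by ALEXA-Seq. The share called in both was not computed for all genes. The log2 fold changes had a Spearman rho of 0.66 over these 46 genes, a description of the same 6 libraries measured in a different way. The largest gaps other than that of Rpl10 were in Rps14 (1.32 by FPKM, 3.44 by ALEXA-Seq), Rpsa (1.77 and 3.79), Rpl18 (0.11 and 2.11) and Rps23 (1.15 and 3.11). Adding 1 before the logarithm compresses genes near 1 FPKM, and the ratios of group means lay closer between the tables than the fold changes for 37 of the 46 genes, but not for Rpl10 or Rpl18. For Rpl18 the ratio was 0.698 by FPKM and 3.43 by ALEXA-Seq. For Rpsa that ratio was 15.8 by FPKM and 17.3 by ALEXA-Seq, for Rps26 it was 14.1 and 14.2, and for Rpl32 it was 14.5 and 14.4. With 0.1 added in place of 1 the members' median log2 fold change by FPKM was 2.33.

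**Figure D3:**
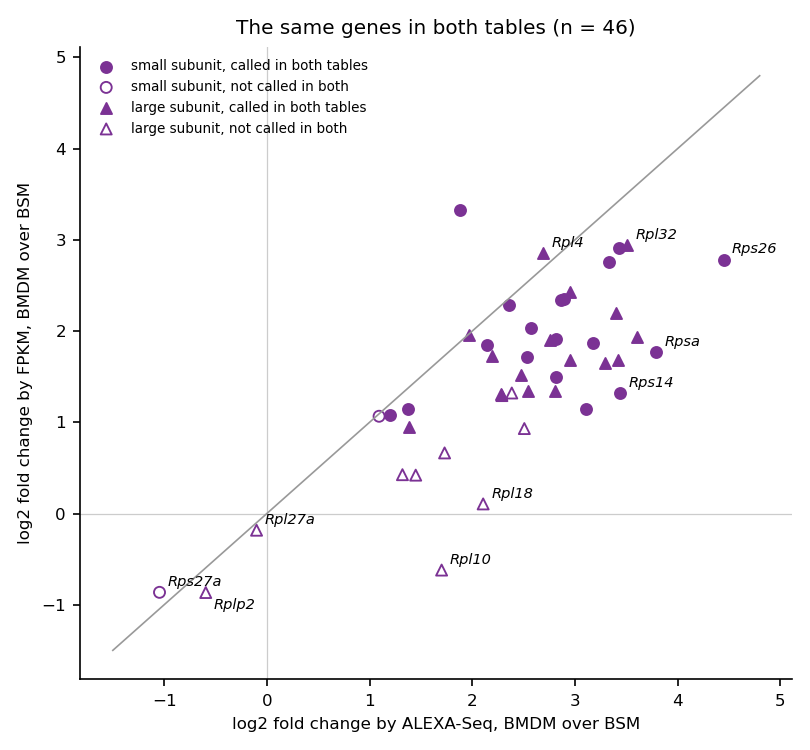
Log2 fold change (BMDM over BSM) by FPKM against that by ALEXA-Seq for the 46 ribosomal protein genes tested in both tables, with circles for the small and triangles for the large subunit, filled where the gene was called in both; the grey line marks equal values. Most points lie below the line, and Rpl10 is the gene with opposite signs and the largest gap.

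Rps29, Rpl37a and Rpl27 were listed at 0 FPKM in at least 1 library in which their ALEXA-Seq value was above the median of the members, the rule by which they were chosen. Rps29, a small zinc-binding protein of the small subunit, had 0.0186, 0 and 0.0323 FPKM in BMDM and 0.142, 0.105 and 0.0442 in BSM. Its ALEXA-Seq values were 162, 207 and 189.8 in BMDM and 27.0, 37.1 and 27.3 in BSM, called higher in BMDM at 2.58 ± 0.26 (adjusted p = 0.000337). The FPKM row of Rps29 was thus 1 of the 2 with BSM above BMDM, with both groups far under the minimum for testing. Rpl37a (0.195, 0.331 and 0.262 against 0.0529, 0.0348 and 0 FPKM) was called at 3.74 by ALEXA-Seq. Rpl27 was listed at 0 FPKM in BSM replicate 1. By ALEXA-Seq it had 22.5 there, 40.1 and 51.4 in the other BSM libraries, and 54.3 to 105 in BMDM, and the difference between the groups, 1.05, was not called (adjusted p = 0.0737).

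In BMDM, copies of the coding sequence took more of the FPKM than the genes themselves. At the cutoffs used, 77 of 81 members had at least 1 pseudogene copy in GENCODE M21, from 1 copy up to 60 for Rpl21, and 324 copies of 70 members were listed in the FPKM table under their own identifiers. These rows summed to 1000.4, 1626 and 1405 FPKM in BMDM and to 79.3, 232 and 204 in BSM, whereas the 81 members summed to 480, 738 and 611 in BMDM and to 170.4, 191 and 165 in BSM. The copies held more than the genes in every BMDM library and in BSM replicates 2 and 3, and less in BSM replicate 1. Their mean exceeded that of their own gene's row for 44 of the 70 members in BMDM and for 39 in BSM. In the ALEXA-Seq table the pseudogene copies were small beside the genes, with summed values of 554 against 22957 in BMDM and 347 against 4399 in BSM as means of 3 libraries. Only copies annotated as pseudogenes enter these sums. An ALEXA-Seq row named Rpl41, whose identifier is now that of Gm10076, is in neither sum. It had 3052, 5170 and 3572 in BMDM and 1057, 639 and 585 in BSM, so the copies' part there may be understated.

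A pair of genes, each beside a copy, shows how little separates a gene from its copy. The first 30 coding bases of Rps6, the small subunit protein phosphorylated by S6 kinase, are given with those of its pseudogene Rps6-ps4, with the start codon in capitals. Over the 747 coding bases the pair did not differ at any base.
Rps6: ATGaagctgaacatctccttccccgccacc
Rps6-ps4: ATGaagctgaacatctccttccccgccacc
For Rps23, which lies at the decoding centre, and its copy Gm9701, coding bases 205 to 234 are the 30 with most differences, shown in capitals. Counted from the first coding base of Rps23 they are C207T, G219A, C220T and G234C, with the base of the gene first.
Rps23: tgCgtcagggtgcaGCtcattaagaacggG
Gm9701: tgTgtcagggtgcaATtcattaagaacggC
The row of Rps6 had 1.23, 2.77 and 1.74 FPKM in BMDM and 0.471, 0.480 and 0.696 in BSM. That of Rps6-ps4, at chr2:75029130-75029879 (mm9), had 131, 243 and 215 FPKM in BMDM and 4.89, 26.5 and 26.5 in BSM. In the ALEXA-Seq table Rps6 itself had 561, 849 and 821 in BMDM against 155, 107 and 130.4 in BSM, called at 2.49 (adjusted p = 0.000340). Which locus the reads of such a pair came from cannot be told from either table.

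With the copies added to each gene's row, 69 members entered the test and 60 were called, all higher in BMDM, against 45% of all genes tested. Entry again needed the minimum in any library, so members could enter through BMDM alone. Their median log2 fold change was 2.29, while that of all genes was 0.80. Rpl5 then moved from 0.94 to 2.61, with 191 FPKM in BMDM and 33.1 in BSM as group means, and Rps23 from 1.15 to 3.28. Rpl11 (2.63, adjusted p = 0.000320) and Rpl7 (1.92, adjusted p = 0.0129) were now called. Without a filter, BMDM lay above BSM for 66 of 81 members and BSM above for 1, Rpl10, whose copies added little. Of all genes tested, which had passed the filter, these shares were 55% and 11.7%, so the 2 sets were not chosen alike. The share of the summed FPKM was 1.10% ± 0.165 in BMDM and 0.488% ± 0.111 in BSM, a ratio of 2.24 against 1.38 for the members alone. This sum counts copies of all kinds and is not a measure of functional transcript.

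**Figure D4:**
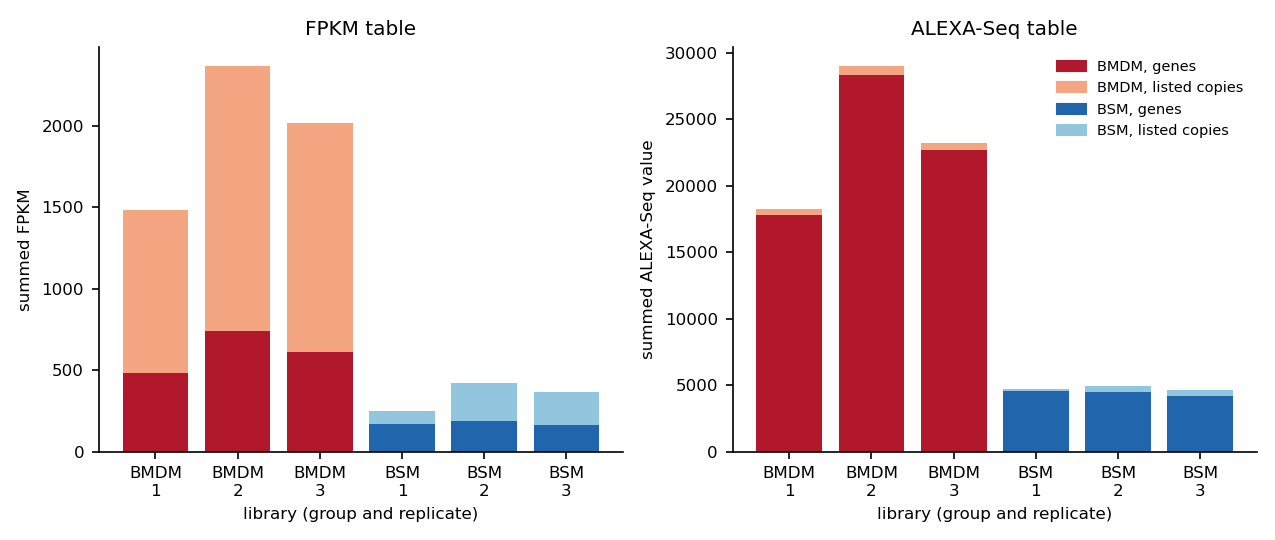
Stacked bars of the summed FPKM (left) and the summed ALEXA-Seq value (right) in each library, with the ribosomal protein genes in the dark and their listed pseudogene copies in the light shade, BMDM in red and BSM in blue. Copies make up most of the FPKM bars in BMDM and a thin top of the ALEXA-Seq bars.

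Ribosomal proteins outside the symbol rule were also looked at. Fau, a fusion that yields the small subunit protein eS30, had 2.82, 4.70 and 3.97 FPKM in BMDM and 0.477, 0.649 and 0.514 in BSM (1.62 ± 0.27, adjusted p = 0.00185). Gnb2l1, the scaffold RACK1, had 6.55, 17.4 and 11.4 against 7.21, 4.18 and 4.03 FPKM and was not called (adjusted p = 0.0517). Genes that assemble ribosomes had smaller median differences, though the gap to the members was not tested. Of 48 biogenesis factors, 29 were tested by FPKM and 10 (34.5%) were called by limma, all higher in BMDM. Of all genes tested, 45.3% were called higher in BMDM. The median log2 fold change of the factors was 0.65, which lay below the 0.81 of all genes. By ALEXA-Seq 10 of 33 factors (30.3%) were called, all higher in BMDM, against 37.1% of all genes tested, and their median was 0.78. None was lower in BMDM at an unadjusted p under 0.05 in either table. Npm1, the nucleolar chaperone nucleophosmin, had 179, 138 and 177 FPKM in BMDM and 21.3, 35.2 and 29.8 in BSM (2.49 ± 0.26), and Ncl, nucleolin, had 60.2, 60.5 and 73.2 against 13.4, 18.7 and 18.9 (1.88 ± 0.23). These were among the larger differences of the list. Of the factors not called, Gnl3 (0.27) and Nop56 (0.19) lay near 0, and Tsr1 (-0.19) and Sbds (-0.55) lay below it. After quantile normalization by FPKM the median of the biogenesis factors was -0.10, with 5 of 29 called in the direction of BMDM and 2 in that of BSM. Of all genes tested, 21.7% and 19.3% were. An equal sum in each library turned the balance, to 3 higher in BMDM and 5 higher in BSM by FPKM and 2 and 6 by ALEXA-Seq. All genes tested also turned, with 15.2% and 24.9% so called by FPKM. By ALEXA-Seq 13.2% of them were called higher in BMDM and 1920 of 6364 higher in BSM.

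Other features of the libraries moved with the groups. All 10 proliferation genes tested, among them Mki67 and Top2a, were called higher in BMDM in both tables. Of all genes tested, 45.3% were by FPKM and 37.1% by ALEXA-Seq. By FPKM all of these proliferation genes but Pcna entered the test through BMDM libraries only, so the count describes genes admitted by the group in which they were high. The list summed to between 306 and 413 FPKM in BMDM and between 11.2 and 19.4 in BSM, where Mki67 was at most 0.308. BMDM replicate 2, with the highest neutrophil and erythroid marker sums, was the highest BMDM library for 52 of 81 members. Its median over all genes tested was also the highest, at 6.20 FPKM against 4.94 and 5.87 in BMDM replicates 1 and 3. The like share over all genes was not computed. Without it 35 of 49 members were called by FPKM, with a median log2 fold change of 1.40, and 47 of 63 by ALEXA-Seq. Without BSM replicate 1, 37 members were called by FPKM, of which 36 were higher in BMDM and Rpl10 was higher in BSM, and 59 by ALEXA-Seq. The part of cell division in the difference was not tested.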

How the data were processed

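Total RNA from sorted cells was amplified (Ovation RNA-Seq), size-selected and sequenced as paired ends. The submitters' processing notes name CASAVA 1.7.0, TopHat 1.3.1, Bowtie 0.12.7, Cufflinks 1.0.3 and mm9. The deposited FPKM values are those the authors obtained with Cufflinks, scaled by transcript length and mapped reads. The second deposited table holds the authors' ALEXA-Seq normalized signal, whose unit and version are not given in the sources used here. There were 6 libraries in 2 groups of 3, mapped by their labels, and 0 columns of per-sample values were left unused. Members and lists were chosen with earlier results of these data known.

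Genes with at least 3 FPKM in at least 1 library (6364) were tested with limma 3.58.1 in R 4.3.3 on log2(FPKM + 1), with a mean-variance trend, no block and Benjamini-Hochberg adjustment over all genes tested. As many genes, taken by their highest value, were tested on log2(ALEXA-Seq value + 1). A fold change on this scale understates that of low genes. Errors are SE of log2 fold changes and SD of group values. Simulated data with 200 genes changed per size gave 71.5% recovered at a log2 fold change of 2 and 97.0% at 4 for the FPKM comparison, and 0% at 1. Only 200 of 6364 genes were changed there, whereas 54.5% were called in the data, so these recoveries do not carry over to the data. Pseudogene copies were found by BLAST+ 2.17.0, aligning principal coding sequences to GENCODE M21 transcripts (at least 100 bases, or 90% of a shorter coding sequence, and 95% identity), each copy going to its best gene. Promoters are RefSeq's (GRCm38.p6). No coordinates were converted between builds, and mm9 positions are as deposited. Genes were named in the text by level, size of difference, disagreement between tables, paralogy, stalk membership and known disease role. Alternatives were another pseudocount, 2 other filters, 3 scalings, a replicate block, each library left out, and, chosen after seeing the data, copies added. The tables used hold no read counts, so no counting interval is given. A few genes that enter the counts are not reported here by name, and marker sums leave them out.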

Additional observations from a re-analysis of the deposited data

How the results depend on the processing

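The direction of the family, higher in BMDM, was kept in the counts and medians of both tables under all alternatives run, but their size was not. By FPKM the 38 members called became 23 with an equal sum in each library and 60 with copies added (chosen after seeing the data). The members' median log2 fold change of 1.65 became 2.33 with a pseudocount of 0.1, 1.02 with no minimum, 0.75 after quantile normalization, 0.80 with an equal sum and 2.29 with copies added. By ALEXA-Seq the 55 called became 31 with no minimum, and the median of 2.55 became 1.78 after quantile normalization and 1.29 with an equal sum. The ratio of the members' shares became 1.78 by FPKM and 2.69 by ALEXA-Seq without mitochondrially encoded genes, and 2.24 by FPKM with copies added. With no minimum the adjustment runs over 35237 rows by FPKM and 36536 by ALEXA-Seq. Leaving out 1 library at a time gave 33 to 37 members called and medians of 1.40 to 1.81 by FPKM, 47 to 59 and 2.36 to 2.79 by ALEXA-Seq.

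Among the genes named, those that changed sign were Rps9 with an equal sum (-0.15 by FPKM, -0.076 by ALEXA-Seq), Rpl5 (-0.087) and Rpl11 (-0.078) by FPKM and Rpl27 (-0.21) by ALEXA-Seq with an equal sum, Rpl11 (-0.26) after quantile normalization, Rpl27a by FPKM (0.39 with copies added, between -0.58 and 0.47 with 1 library left out) and by ALEXA-Seq (between -0.56 and 0.65), and Rpl18 by FPKM, at -0.34, -0.83 and -0.57 under upper quartile scaling, quantile normalization and an equal sum and between -0.50 and 0.88 with 1 library left out. The cause was not tested. The labels do not say what a replicate number shares across the groups. Deviations of same-numbered libraries correlated at -0.02, -0.01 and 0.13 by FPKM and at 0.02, 0.04 and 0.10 by ALEXA-Seq. With 3 libraries a group, these values cannot show whether the samples were paired. With the replicate number as a block, 38 members were called by FPKM and 55 by ALEXA-Seq, but 1 call was lost and 1 gained by FPKM, and 3 were lost and 3 gained by ALEXA-Seq, Rpl7 among the gained. The tables hold no read counts, so the counting error of low values was not assessed.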

Other observations

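Several small subunit genes outside those described above behaved alike, and are named here after their values were seen because they stayed called under the 3 other scalings in both tables. Rps15 had 12, 18.1 and 12.1 FPKM in BMDM and 0.224, 2.28 and 1.60 in BSM, Rps4x, the X-linked form, had 9.97, 17.3 and 14.0 against 0.897, 2.57 and 2.41, and Rps24 had 9.65, 15.9 and 11.1 against 0.842, 1.91 and 2.07. Their log2 fold changes by limma were 2.76 ± 0.39, 2.34 ± 0.33 and 2.35 ± 0.30 (SE), and no group overlapped. Rps20 stood apart in BSM replicate 1 again, with 8.11 FPKM there, 2.76 and 2.97 in the other BSM libraries and 8.39, 11.1 and 11.9 in BMDM.

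Some members could be read in the ALEXA-Seq table only. Rpl36a had 561, 984 and 666 in BMDM and 10.0, 94.7 and 82.8 in BSM by ALEXA-Seq, called at 4.01 ± 0.81 (adjusted p = 0.00717 by limma), while its FPKM row held 0.565, 0.251 and 0.364 against 0.0229, 0.439 and 0.242. Rpl13 had no FPKM row under its symbol and had ALEXA-Seq values of 8.00, 9.72 and 12.1 in BMDM and 0.431, 3.11 and 2.43 in BSM. Rpl12 was the member whose ALEXA-Seq values were higher in BSM without overlap, at 24.3, 12.9 and 11.3 against 7.50, 1.80 and 11.2 in BMDM, below the level at which genes entered the test. With its copies added, the ALEXA-Seq groups overlapped, at 20.0, 24.5 and 40.4 in BMDM against 26.9, 20.4 and 19.1 in BSM. By FPKM with copies, BMDM lay above, at 37.1, 59.5 and 49.7 against 3.03, 11.8 and 10.5. The number of copies of a gene bore little relation to its level: over 81 members the copy number and the mean FPKM had a Spearman rho of -0.07, a description over genes that share the same 6 libraries.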
